A study of Mus musculus with 6 samples.

Results

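The genes described here carry the antigen receptor signal from protein kinase C-theta to the IκB kinase (IKK) complex. They were chosen by name, and 8 of 8 were found among the 48397 rows of the count table: Prkcq, Bcl10, Malt1, Traf6, Map3k7, Chuk, Ikbkb and Ikbkg. Each was measured by RNA-Seq in stage 0 invariant natural killer T (iNKT) cells, the earliest thymic iNKT precursors after positive selection. Of the 6 libraries, 3 came from BALB/c mice with wild-type Zap70. The other 3 came from SKG mice, which carry a hypomorphic Zap70 mutation on the BALB/c background and so have a weaker response of the T cell receptor (TCR). Mice of both genotypes were 8 to 10 weeks old. Each library was prepared from about 1000 cells sorted from the pooled thymi of 3 mice, and the spread between single mice therefore cannot be seen. The sort kept tetramer-binding cells that were CD24+, CD69+, CD44-, CD8- and low or negative for CD4.

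When a TCR is engaged, Zap70 and its adaptors activate phospholipase C-γ1, and the diacylglycerol that it makes draws PKC-theta to the membrane. PKC-theta then acts through a CARD-family scaffold, not analysed here, to which Bcl10 and Malt1 bind. Traf6 attaches ubiquitin chains, on which the kinase TAK1 (Map3k7) meets the IKK complex, and IKK marks the IκB inhibitors for destruction so that NF-κB enters the nucleus. Most steps of this route are changes of proteins and not of mRNA. Transcript levels show how much of each component's message was present and not how strongly the route was signalling.

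Some genes that control NF-κB carry its binding motif themselves, so the 250 bases before the RefSeq transcription starts (GRCm38.p6) were searched on both strands for the κB consensus, a motif of 10 bases. There were 9 windows for 6 of the 8 genes, and 2 of the 9 held the motif, 1 of Bcl10 and 1 of Map3k7. Of all 32851 windows of this length, 7.25% held it. Both matches are shown within 30 bases, 5′ to 3′ on the strand of the gene, with the match in capitals. The RefSeq starts differ from those of the GENCODE gene spans given with the values. The Bcl10 stretch is chr3:145924012-145924041, and its match begins 241 bases before the RefSeq start and reads as the motif on either strand. It lies inside the GENCODE span of Bcl10, which begins at base 145922804, and so not upstream of that annotated gene. The Map3k7 stretch is chr4:31964005-31964034, and its match begins 92 bases before the RefSeq start and reads as the motif on the opposite strand. A match describes letters and not a bound site.
Bcl10: gcgaaggcgGGGAGATCCCgctaaactgag
Map3k7: ccccgggtcaGGAAATTCCCcgctcgggtc

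The libraries held between 37176544 and 43115544 reads counted on genes, and none of the 8 genes had 0 reads in any library. Between 10835 genes (SKG replicate 3) and 14791 genes (SKG replicate 1) had 10 or more reads. All 9 iNKT and T cell markers passed edgeR's filter on low counts, with summed levels of 5714 to 7276 CPM, the counts scaled to a common library total, in BALB/c and 5049 to 6108 in SKG. Trbc2 and the CD3 chains supplied most of this sum, which therefore hides differences of single markers. Egr2 was at 1547, 1097 and 1408 CPM in BALB/c and at 883, 956 and 493 in SKG. Cd24a was at 52.4, 7.31 and 15.6 CPM in BALB/c and at 31.9, 88.6 and 90.7 in SKG. For 5 other marker lists the sums overlapped between the genotypes: thymocytes positive for CD4 and CD8 (46.1 to 316 CPM in BALB/c, 38.0 to 155 in SKG), B cells (1.73 to 6.84 and 3.11 to 8.38), myeloid cells (4.34 to 64.8 and 6.06 to 146), erythroid cells (0.0270 to 69.7 and 0.0515 to 0.691) and thymic epithelium (28.1 to 41.4 and 10.0 to 86.9). Cd14, Alas2, Krt5 and Psmb11 had 0 reads in all 6 libraries. The mean of Zap70 mRNA was 448 CPM in BALB/c (SD 65.4) and 356 CPM in SKG (SD 45.9, n = 3 each), and the libraries overlapped. The SKG allele changes the protein, so this level does not check the labels.

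Prkcq encodes PKC-theta, the kinase at the head of the route, and spans bases 11172108 to 11301222 of chromosome 2 (GRCm38, which holds for every position given). Its level was 220, 286 and 315 CPM in replicates 1 to 3 of BALB/c and 370, 414 and 447 CPM in replicates 1 to 3 of SKG. Every SKG library was above every BALB/c library, which held for 6.77% of all genes tested. Prkcq was the only one of the 8 genes whose libraries did not overlap between the genotypes. The means were 274 ± 48.8 CPM (SD, n = 3) and 410.2 ± 38.85 (SD, n = 3), a fold change of 1.498 with a 95% interval from 1.11 to 2.01. On the log2 scale this was 0.58 with a standard error (SE) of 0.18. The unadjusted p of edgeR's quasi-likelihood test was 0.0149 and the adjusted p 0.830. Fits that each left out 1 library gave log2 values from 0.45 (without BALB/c replicate 1) to 0.70 (without BALB/c replicate 3), with an unadjusted edgeR p between 0.0132 and 0.0432. BALB/c replicate 1, the lowest for Prkcq, also had the highest marker sums for thymocytes positive for CD4 and CD8 (316 CPM) and for erythroid cells (69.7 CPM), and their part in the Prkcq values was not tested. In bulk RNA, more cells with a transcript and more transcript per cell cannot be told apart.

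Read across the 8 genes, the fitted value was higher in SKG for all 8, as for 6030 of all 12312 genes tested. The median log2 fold change was 0.26 for the 8 and -0.016 over all genes tested. In alternative fits Bcl10, Malt1 and Map3k7 reached -0.056, -0.15 and -0.014, so their sign was not stable. A gene was called where its fold change reached 1.5 and its false discovery rate (FDR) was under 0.1. At that threshold edgeR called 0 of the 8, with a background of 0% over all genes. The lowest adjusted p among the 8 was the 0.830 of Prkcq. At an unadjusted p under 0.05 edgeR gave 2 of the 8, Prkcq and Ikbkb, where 671 genes, or 5.45% of all genes tested, had such a p. The libraries did not overlap for 1 of the 8. Over all genes the libraries did not overlap for 13.9%, and for 6.77% the SKG libraries were the higher. DESeq2 without shrinkage of the fold changes also called 0 of the 8, with a background of 2.58% of the genes to which it gave an adjusted p. A fold change that misses the threshold is not shown to be absent: the 95% intervals reached up to a fold change of 1.73 for Chuk and 3.15 for Traf6.

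**Figure D1:**
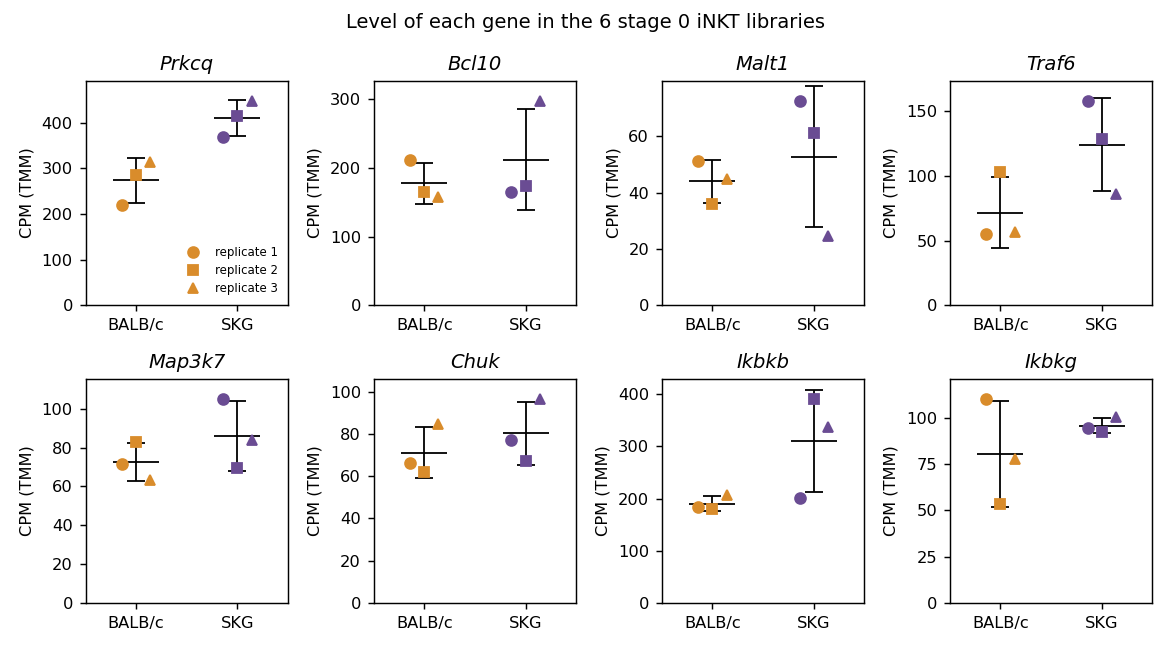
Level of each of the 8 genes (y axes, CPM on TMM-normalized library sizes, from 0) in the 3 BALB/c and 3 SKG libraries; points are libraries, with the symbol giving the replicate, and black bars the mean ± SD. For Prkcq the 3 SKG libraries (370 to 447 CPM) sit above all BALB/c libraries (220 to 315), whereas for the other 7 genes the libraries overlap. Such separation with SKG higher held for 6.77% of all genes tested.

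Bcl10 and Malt1 form the complex that PKC-theta switches on, and Malt1 is also a protease. Bcl10, on chromosome 3 from 145922804 to 145934356, was at 212, 165 and 157 CPM in BALB/c and at 165, 174 and 297 CPM in SKG. One library, SKG replicate 3, stood above the others, and the remaining SKG libraries lay within the BALB/c range. The fold change was 1.19, with a 95% interval from 0.756 to 1.88, and without SKG replicate 3 the log2 value went from 0.25 to -0.056. Malt1, on chromosome 18 from 65430938 to 65479067, showed the opposite picture in the same library. It was at 51.1, 36.0 and 44.8 CPM in BALB/c and at 72.4, 61.2 and 24.5 CPM in SKG, so that SKG held both the highest and the lowest library. Its fold change was 1.199, with a 95% interval from 0.560 to 2.57, the widest of the 8 on the log2 scale. Without SKG replicate 3 its log2 fold change went from 0.26 to 0.62. SKG replicate 3 also had the fewest genes detected and the highest myeloid marker sum, 146 CPM, and the part of these in the Bcl10 and Malt1 values was not tested.

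Per length, Bcl10 mRNA exceeded Malt1 mRNA in all 6 libraries, given as RPKM, the CPM per kilobase of annotated exon. The annotated exons of Malt1 sum to 18040 bases and its longest transcript to 6404, so the size of this ratio depends on the length used. The ratio of Bcl10 to Malt1 was between 13.9 and 18.1 in BALB/c and between 9.03 and 47.9 in SKG, where the highest value was that of SKG replicate 3. Over the 6 libraries Pearson's r between the log2 CPM of both genes was -0.67, the lowest of the 28 pairs among the 8 genes. This r describes 6 libraries of both genotypes that share depth and preparation, and carries no test.

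Traf6, a ubiquitin ligase, and Map3k7, the kinase TAK1, stand between the Bcl10-Malt1 complex and IKK. Traf6, on chromosome 2 from 101678429 to 101701669, was at 54.7, 103 and 56.3 CPM in BALB/c and at 158, 129 and 86.0 CPM in SKG. Both groups overlapped through BALB/c replicate 2 and SKG replicate 3. Its fold change of 1.74 was the largest of the 8, with a 95% interval from 0.962 to 3.15 (log2 0.80, SE 0.36). Its unadjusted edgeR p was 0.0627 and its adjusted p 0.951. Without BALB/c replicate 2 the log2 fold change was 1.16 with an unadjusted edgeR p of 0.0157, and without SKG replicate 1 it was 0.59. The unadjusted p was 0.0309 without SKG replicate 3. On all libraries it was 0.0443 with limma-voom and 0.0448 in edgeR with no filter on low counts. Without BALB/c replicate 1 or 3, or SKG replicate 1 or 2, it was between 0.128 and 0.196. Map3k7, on chromosome 4 from 31964097 to 32023467, differed less. It was at 71.4, 83.0 and 63.3 CPM in BALB/c and at 105, 69.4 and 83.8 CPM in SKG, a fold change of 1.19 with a 95% interval from 0.779 to 1.80.

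The IKK complex holds the kinases IKKα (Chuk) and IKKβ (Ikbkb) and the regulatory subunit NEMO (Ikbkg), and IKKβ with NEMO serves the route from the TCR. Ikbkb, on chromosome 8 from 22659212 to 22706589, was at 183, 180.1 and 207 CPM in BALB/c and at 202, 390.5 and 337 CPM in SKG. The BALB/c libraries lay close together, and SKG replicate 1 lay within their range while SKG replicates 2 and 3 were far above it. The fold change was 1.63, with a 95% interval from 1.06 to 2.497 (log2 0.70, SE 0.26). Its unadjusted edgeR p was 0.0307 and its adjusted p 0.847. Without SKG replicate 1 the log2 fold change was 0.93 with an unadjusted edgeR p of 0.00243. With any other library left out the p was between 0.0530 and 0.0999, so the unadjusted p under 0.05 depended on having all 6 libraries or on leaving out that one. Limma-voom gave 0.0539.

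Chuk, on chromosome 19 from 44073335 to 44107480, was at 66.3, 62.1 and 84.9 CPM in BALB/c and at 77.2, 67.4 and 96.5 CPM in SKG. The genotypes overlapped over most of their ranges, with a fold change of 1.13 and a 95% interval from 0.737 to 1.73. Ikbkg, on chromosome X from 74393290 to 74453854, was at 110.1, 53.5 and 77.7 CPM in BALB/c and at 94.4, 92.4 and 100.6 CPM in SKG. Here the SKG libraries lay within the BALB/c range, and their coefficient of variation was 4.48% against 35.3% in BALB/c. Its fold change was 1.19, with a 95% interval from 0.727 to 1.95. Counting did not use strand, and 418 bases of the annotated Ikbkg exons, or 5.15%, overlap exons of G6pdx on the opposite strand. The exons of the other 7 genes overlap no annotated exon of another gene. On the union of exons the order of Chuk and Ikbkb varied between libraries. The ratio of Ikbkb to Chuk in RPKM, the CPM per kilobase, was 0.651 to 0.773 in BALB/c and 0.697, 1.55 and 0.932 in the SKG replicates 1 to 3. This order depended on the length used. Per longest transcript (4845 bases for Ikbkb, 3502 for Chuk) Ikbkb was above Chuk in every library, with means of 51.6 and 21.6 RPKM.

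**Figure D2:**
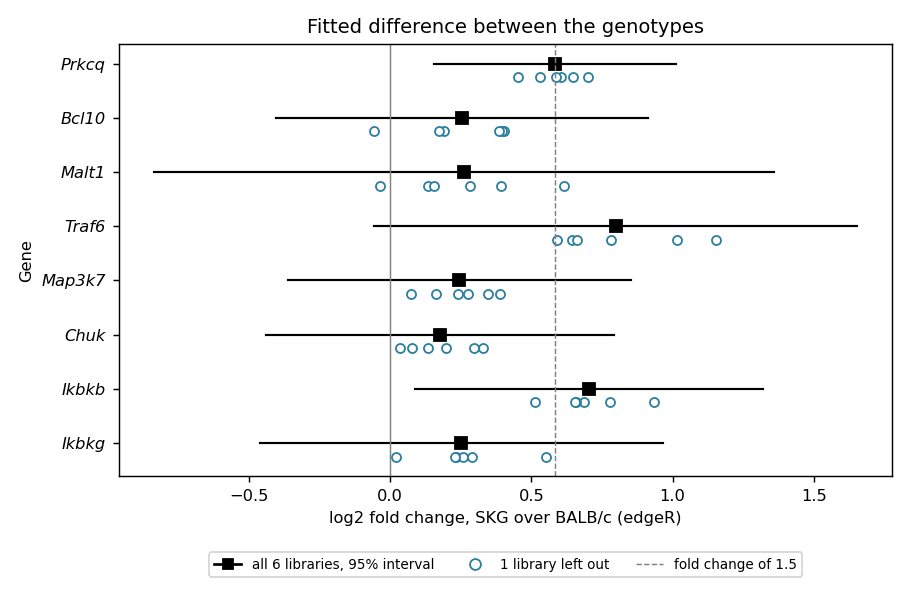
Log2 fold change of each gene, SKG over BALB/c, from edgeR (x axis); squares are fits to all 6 libraries with their 95% interval, open circles fits with 1 library left out, and the dashed line a fold change of 1.5. The intervals of Prkcq and Ikbkb lie above 0 before adjustment for the genes tested, and open circles fall below 0 for Bcl10 and Malt1.

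The 8 genes together took 9.57 to 10.5 of every 10000 reads in the BALB/c libraries and 12.4 to 14.3 in the SKG libraries. Prkcq, Ikbkb and Bcl10 supplied most of these reads, so the sum follows them more than the other 5 genes. Among the pairs of the 8 genes, Prkcq and Ikbkb had the highest correlation of log2 CPM over the 6 libraries (Pearson's r = 0.80). Traf6 and Map3k7 followed (r = 0.70). Each r is a description over both genotypes together, so a difference between the genotypes enters it. The spread between libraries of one genotype was smaller for all 8 than for the median gene. The biological coefficient of variation fitted by edgeR was between 19.2% for Prkcq and 44.7% for Malt1, against a median of 60.9% over all genes tested. Within 1 log2 unit of their own level, the share of genes with a wider spread ran from 40.8% for Ikbkb to 80.9% for Map3k7.

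Levels of different genes were compared per length. On the union of annotated exons, Prkcq (48.3 ± 11.9 RPKM, SD over 6 libraries) and Bcl10 (42.7 ± 11.8) were the most abundant, and either was the higher in some libraries. Chuk (14.9 ± 2.58), Ikbkb (13.1 ± 4.74), Traf6 (12.4 ± 5.16), Map3k7 (12.3 ± 2.32) and Ikbkg (10.9 ± 2.47) followed, and neighbours in this order lay within each other's spread. Malt1 was the lowest at 2.68 ± 0.955 and was below its neighbour Ikbkg in all 6 libraries. The place of Ikbkb depended on the length used. Its annotated exons span 19078 bases in all and its longest transcript 4845, and per longest transcript its mean was 51.6 RPKM, below Prkcq (86.1) and Bcl10 (82.3) and above Chuk (21.6). Malt1 stayed lowest on that measure at 7.55.

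**Figure D3:**
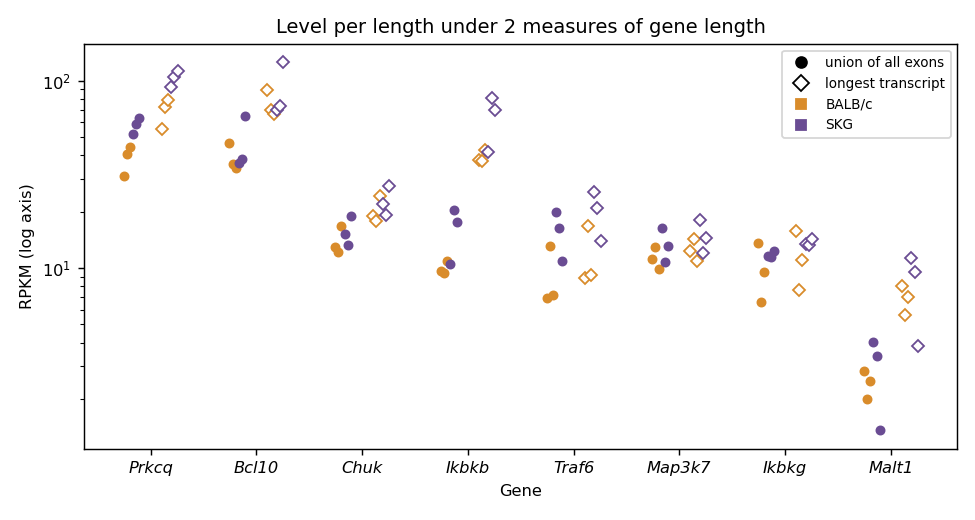
Level per length of the 8 genes in each library (y axis, RPKM, log scale), with the union of all annotated exons (filled circles) or the longest transcript (open diamonds) as the length; colours give the genotype. Malt1 lies lowest on either measure, and Ikbkb moves from a mean of 13.1 to 51.6 RPKM.

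Around these 8 genes, 80 further genes of the route from the TCR to NF-κB were counted in 8 lists, of which edgeR could test 71. At the FDR threshold edgeR called 0 of them, and at an unadjusted p under 0.05 there were 8 with higher values in SKG and 2 with higher values in BALB/c. These 10 of 71 stand beside the background of 5.45%. The lists were chosen with results of these data known.

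Of the lists, the TCR-proximal one, shown as inputs to PKC-theta, had the most genes with a low unadjusted p. It also holds genes that are not inputs, such as brakes. Of 13 tested, 4 had a p under 0.05, all higher in SKG, and the list had a median of 0.40 on the log2 scale. The fitted value was higher in SKG for 9 of the 13, against 6030 of all 12312 genes tested. It was higher in BALB/c for the other 4, among them Zap70 (log2 -0.33) and Cd28 (-0.11). Plcg1, which makes the diacylglycerol that PKC-theta binds, was at 298 ± 49.9 CPM in BALB/c and 466 ± 12.1 in SKG (SD, n = 3 for all values that follow). The log2 difference was 0.64 with an SE of 0.16 (edgeR adjusted p = 0.686). DESeq2 without shrinkage called Plcg1, with an adjusted p of 0.0929. Rasgrp1, an exchange factor for Ras that also binds diacylglycerol, was at 756 ± 260.2 and 1583 ± 221 CPM in the same order. Dgkz, a kinase that removes diacylglycerol, was at 1038 ± 182 and 1368 ± 106 CPM. Map4k1, a kinase known as a brake on TCR signalling, was at 157 ± 22.0 and 222 ± 30.1 CPM. For each of these 4 genes, chosen here by their p, every SKG library was above every BALB/c library, as for 6.77% of all genes tested. Cd28, a costimulatory receptor with the highest CPM of the list, was at 1525 ± 172 and 1408 ± 329.6 CPM, and its libraries overlapped.

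Among other PKC and PKD kinases, 2 of 8 tested had a p under 0.05, both higher in SKG, while the median of the list was -0.0067. Prkch (PKC-η), with the highest CPM of them, was at 964 ± 70.5 CPM in BALB/c and 1331 ± 213 in SKG, a log2 fold change of 0.47. Prkcb (PKC-β) was at 101 ± 24.7 and 153 ± 14.04 CPM, a log2 fold change of 0.60.

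The ubiquitin and TAK1 partners had 1 of 13 tested genes under 0.05. Rnf31, the catalytic subunit of the linear ubiquitin ligase, was at 32.8 ± 18.0 CPM in BALB/c and 97.8 ± 27.9 in SKG, or 1.58 on the log2 scale with an SE of 0.52 (edgeR adjusted p = 0.833). Its partner Rbck1, with the highest CPM of the list, was at 445 ± 51.7 and 503 ± 62.3 CPM with overlapping libraries. Deubiquitinases and other brakes also had 1, of 15 tested. Cyld, which removes the ubiquitin chains that activate IKK, was at 91.9 ± 37.0 and 202 ± 17.8 CPM, or 1.14 on the log2 scale with an SE of 0.31 (edgeR adjusted p = 0.730). Tax1bp1 had the highest CPM among the brakes, at 278 ± 21.6 and 311 ± 82.3 CPM. Of 6 other IKK-related kinases 0 had a p under 0.05, and the one with the highest CPM, Ikbke, was at 225 ± 44.0 and 280 ± 84.0 CPM.

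At the end of the route, only 2 genes had a low unadjusted p, Relb and Cd69, and both were higher in BALB/c. Of 5 NF-κB subunits, Relb had a p under 0.05, with 5469, 2459 and 2784 reads per BALB/c library against 1459, 347 and 1116 per SKG library (86.8 ± 39.7 and 25.3 ± 14.5 CPM). On the log2 scale it differed by -1.78 with an SE of 0.60 (edgeR adjusted p = 0.834), and the other 4 subunits had positive fitted values. Rela, with the highest CPM, was at 250.04 ± 48.6 and 295 ± 73.1 CPM. All 5 tested genes of the IκB family, shown as IκB inhibitors, had negative fitted values, with a median of -0.24. Of these 5 genes, 0 had a p under 0.05. Over all 12312 genes tested, 6282 had negative and 6030 positive fitted values. Nfkbia, with the highest CPM, was at 151 ± 72.9 and 141 ± 37.1 CPM, a log2 fold change of -0.10 with an SE of 0.38. Of 14 tested NF-κB target genes, 2 had a p under 0.05, Relb again and Cd69, with a median of 0.019 for the list. Cd69 was at 353 ± 39.9 CPM in BALB/c and 193 ± 50.4 in SKG, or -0.87 on the log2 scale with an SE of 0.22 (edgeR adjusted p = 0.686), in cells that had been gated on CD69 protein.

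**Figure D4:**
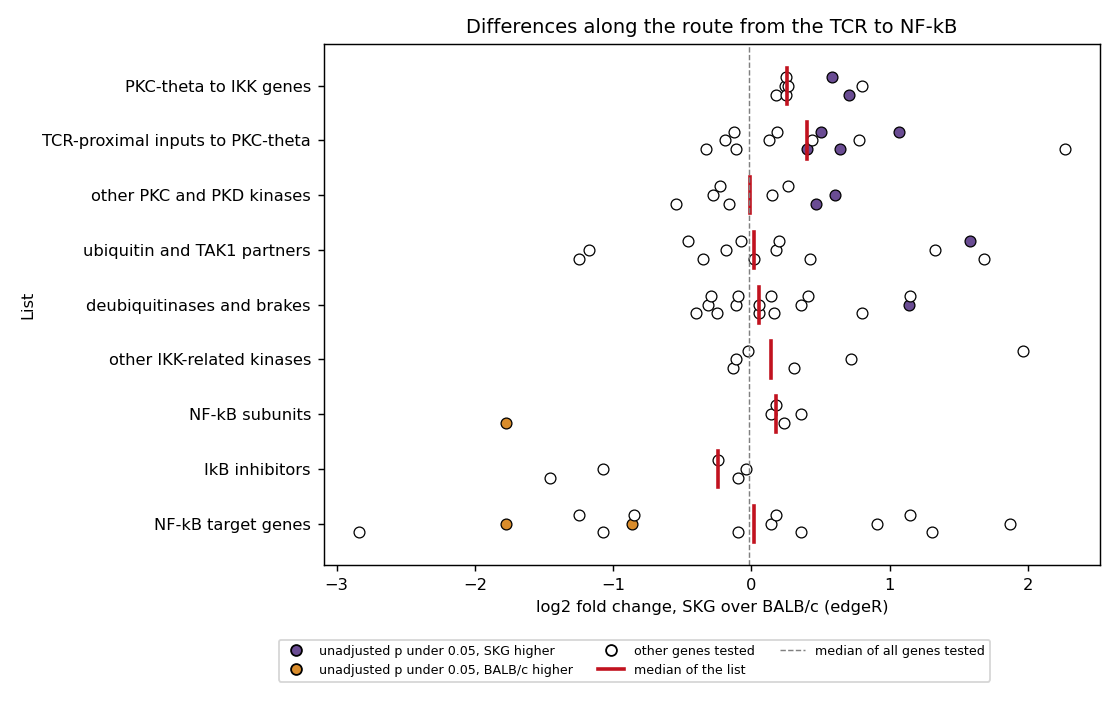
Log2 fold change, SKG over BALB/c, of every tested gene (circles) in the 8 PKC-theta to IKK genes and in 8 lists around them (rows); filled circles have an unadjusted edgeR p under 0.05, red bars are list medians and the dashed line is the median of all genes tested, -0.016. Filled circles on the SKG side lie in the upper rows, and those on the BALB/c side are Relb, shown in both of its lists, and Cd69.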

How the data were processed

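The authors aligned the reads with HISAT2 2.1.0 to GRCm38 and counted those overlapping Ensembl exons with featureCounts (Subread 1.4.4), unstranded, at a minimum mapping quality. The deposited values are raw counts per gene symbol, 1 column per library. A second deposited table holds only the authors' DESeq2 comparison and was not used. The study's text and the sample labels name different amplification kits.

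Genes were filtered with filterByExpr, normalized with TMM and tested with edgeR 4.0.16 (quasi-likelihood F test, R 4.3.3) in one fit of all 6 libraries without covariates, with Benjamini-Hochberg adjustment over 12312 genes. Simulated counts were also fitted, but with less spread than these libraries, whose common biological coefficient of variation was 91.8%. At the wider of the simulated spreads most changed genes were not called. The simulation therefore cannot show how many true differences were missed here. Standard errors were obtained as the size of the log2 difference over the root of its F statistic, and 95% intervals use the fit's degrees of freedom. The alternatives were DESeq2 1.42.0 on all rows, limma 3.58.1 (voom), other normalization factors, filters and thresholds, blocks and left-out libraries. Two-sided exact permutation tests on single genes cannot go below 0.1 with 3 libraries against 3, the value Prkcq gave. Gene lengths and positions came from GENCODE M21 (GRCm38). RPKM was computed as CPM per kilobase. The study describes the samples of each genotype as independent. PCR copies cannot be told from molecules in these counts.

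The genes named are the 8 chosen, Zap70, in each list the gene with the highest CPM and those with an unadjusted p under 0.05, and the 3 genes most like Prkcq. Traf1, Traf2, Map3k3, Nfkbie and Irf4, and the markers Egr2 and Cd24a, were named after their values were seen. The members and lists were chosen with earlier results of these data known. Same-numbered libraries were not paired in the main fit. Their residuals correlated between -0.145 and 0.00289, which cannot show whether they were prepared together.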

Additional observations from a re-analysis of the deposited data

How the results depend on the processing

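EdgeR's quasi-likelihood test called 0 genes over all genes (671 at an unadjusted p under 0.05), 0 of the 8 genes and 0 of the wider lists. Over all genes, DESeq2 without shrinkage called 370, DESeq2 with shrunken fold changes 231 and edgeR without a filter on low counts 2, while limma-voom called 0. DESeq2 without shrinkage called 2 genes of the wider lists, Plcg1 and Irf4. No alternative called any of the 8 genes, and in the other settings run all 3 counts were 0, with the lowest and highest at 0 and 0 when 1 library was left out and 0 with either replicate block. The blocked log2 fold change of Prkcq was 0.60 by title number and 0.78 by library number.

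The library-number block, in which 1 library of each genotype is without a partner, turned Malt1 to -0.15 and Map3k7 to -0.014. With 1 library left out the log2 fold change ran from -0.036 (without SKG replicate 1) to 0.62 for Malt1 and from -0.056 (without SKG replicate 3) to 0.40 for Bcl10. The cause was not tested. Prkcq, Traf6, Chuk, Ikbkb and Ikbkg kept a positive sign in all 15 alternatives. The number of the 8 genes with an unadjusted p under 0.05 was 1 to 3, and Prkcq was among them in every setting. Using the longest transcript as the length moved the RPKM of 5 of the 8 genes by more than their SD.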

Other observations

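Over the 6 libraries, 79 of 8370 genes with a mean of at least 10 CPM had a Pearson's r above 0.95 with Prkcq on log2 CPM, and the 3 most like it were Wdr1 (r = 0.990), Dennd6a (r = 0.989) and Skap1 (r = 0.989). Wdr1, a factor for actin disassembly, was at 521, 634 and 645 CPM in BALB/c and at 793, 871 and 931 CPM in SKG. Skap1, an adaptor of TCR signalling to integrins, was at 638, 678 and 723 CPM and at 763, 808 and 812 CPM. Dennd6a was at 34.0, 54.8 and 62.5 CPM and at 89.0, 91.1 and 102 CPM. With 6 libraries that share depth and preparation, such values of r are a description. They were taken over both genotypes together, so the difference between the genotypes enters them.

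The following genes of the wider lists were named after their values were seen. Of the 71 tested, 10 had every SKG library above every BALB/c library and 4 the reverse. Such separation held for 13.9% of all genes in either direction and 6.77% with SKG higher. Besides genes already named, these included Traf2 and Map3k3, higher in SKG, and Traf1 and Nfkbie, higher in BALB/c, which had unadjusted edgeR p of 0.0840, 0.0526, 0.172 and 0.126. Irf4 was not tested by edgeR. Its reads numbered 1, 597 and 68 in BALB/c replicates 1 to 3 and 2, 0 and 2 in those of SKG, so most of its reads came from BALB/c replicate 2.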
